A study of Mus musculus with 52 samples.

Results

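The 8 genes described here belong to the secretory program of plasma cells, the antibody-secreting cells that B cells become. They were chosen by symbol, as Mzb1, Derl3, Fkbp11, Txndc5, Xbp1, Prdm1, Pou2af1 and Sdc1, and are 8 of the 27525 genes in a table of normalized read counts from 32 mouse tumors. The study asked how a STING agonist and an antibody that activates the lymphotoxin beta receptor (LTβR), given alone or together, alter pancreatic tumors. RNA was measured by poly(A) RNA sequencing of whole tumors.

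Each tumor was grown under the skin of the flank of a male C57BL/6NHsd mouse aged 8 to 10 weeks. The cells implanted were KPC cells, a line derived from a mouse pancreatic tumor made with a Pdx1-driven Cre, and all 4 groups shared this line and this host. Untreated tumors received neither agent. ADU-S100, a cyclic dinucleotide that activates STING, was injected into the tumor once, on day 0, at 2 µg. The agonistic anti-LTβR antibody 4H8 was injected into the peritoneum at 100 µg in 4 doses. Combination tumors received both agents, and tumors were taken on day 14. Each group held 8 tumors. The labels number tumors rather than mice, so the p-values below cover the spread between these tumors. A single line under the skin is a limited model of a tumor in the pancreas, and Epcam, an epithelial adhesion gene, was low (mean 77.5 normalized counts in untreated tumors) beside the keratin Krt8 (9520).

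A plasma cell devotes much of its capacity to folding and exporting immunoglobulin. BLIMP-1, encoded by Prdm1, shuts down the B cell program, and XBP1 expands the endoplasmic reticulum (ER), where chaperones, disulfide isomerases and a degradation channel handle the antibody chains. OBF-1, encoded by Pou2af1, is a coactivator of octamer-binding factors in B-lineage cells, and syndecan-1, encoded by Sdc1, is a surface proteoglycan used to mark plasma cells that epithelial cells also carry. In the tumor tissue itself, epithelial cells, fibroblasts and macrophages also secrete protein, so the ER genes of this set are not confined to plasma cells.

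The libraries held 12762453 to 15591986 reads in genes, with group medians of 14831778 for untreated, 14938421 for ADU-S100, 15222570 for anti-LTβR and 14856162 for combination tumors. All 8 members passed the filter on low counts in all 6 pairwise comparisons. Differences were tested with limma on log2(normalized count + 1) over all genes that passed the filter, and a gene was called at a Benjamini-Hochberg adjusted p below 0.05. A group difference below is in log2 units with its standard error (SE), and a level is a normalized count per tumor. In whole tumors, a change in the number of cells of a type and a change in RNA per cell cannot be told apart.

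With both agents, 6 of the 8 members rose against untreated tumors, 1 fell and 1 was not called. Mzb1, Pou2af1 and Derl3 rose more than 2-fold, Prdm1, Fkbp11 and Txndc5 rose by less, and Sdc1 fell. Of all 16909 genes tested in this comparison, 19.6% were higher and 23.6% lower, so 75% of members higher stood above the background. Genes both called and at least 2-fold higher made up 5.16% of all genes, and 3 of the 8 members were among them. The groups overlapped for every member, whereas 10.7% of all genes did not overlap.

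**Figure D1:**
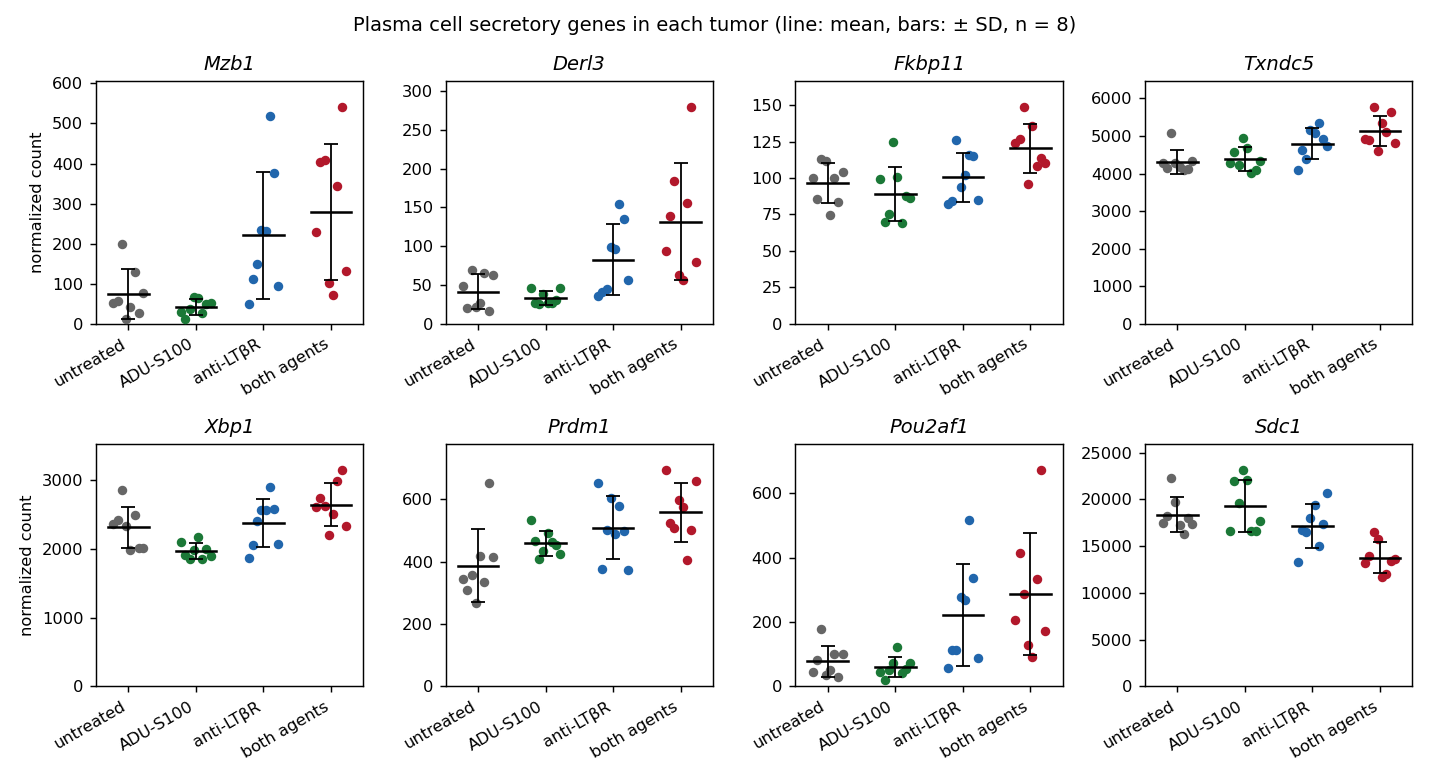
Normalized counts of the 8 members in each of the 32 tumors, by treatment group, with the group mean and SD (n = 8 tumors per group). Mzb1, Derl3 and Pou2af1 reached their highest values in anti-LTβR and combination tumors with wide spread, whereas combination tumors had the lowest mean Sdc1.

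Of the ER genes, Mzb1 encodes a chaperone-like protein that helps assemble secreted immunoglobulin. Its level ran from 11.7 to 199 in untreated tumors with a median of 54.2, and from 11 to 66.3 with a median of 42.7 after ADU-S100. Anti-LTβR tumors ran from 48.5 to 520 with a median of 191, and combination tumors from 71.9 to 541 with a median of 286. Combination and untreated tumors thus overlapped, although 5 of 8 combination tumors lay above every untreated tumor. Mean Mzb1 was 74.1 ± 61.9 without treatment and 279 ± 171 with both agents (SD, n = 8). The difference was 2.03 (SE 0.53; limma adjusted p = 0.00569), about 4.09-fold. Mzb1 overlaps the gene model Gm50318 on the same strand, which had a mean of 13.9 normalized counts, so reads in the shared part are uncertain.

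Derl3 encodes a derlin, a component of the channel that returns misfolded proteins from the ER for degradation. Untreated tumors spanned 16.3 to 69.2 with a median of 37.3, and ADU-S100 tumors 25.0 to 46.6 with a median of 28.9. Anti-LTβR tumors spanned 35.5 to 154 with a median of 76.6, and combination tumors 56.5 to 279 with a median of 117. In 6 of 8 combination tumors Derl3 exceeded every untreated tumor. Mean Derl3 was 41.2 ± 22.5 without treatment and 131 ± 75.3 with both agents, a difference of 1.65 (SE 0.38; limma adjusted p = 0.00228).

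Fkbp11 and Txndc5 encode a peptidyl-prolyl isomerase and a thioredoxin-domain disulfide isomerase of the ER, and both moved far less. Fkbp11 ran from 74.5 to 113 in untreated tumors with a median of 100.1, and from 96.1 to 149 in combination tumors with a median of 119. The difference was 0.32 (SE 0.11; limma adjusted p = 0.0250), and it was not called without combination tumor 3 (adjusted p = 0.0538), with the tumor number as a block (adjusted p = 0.0563) or with libraries above 14000000 reads alone (adjusted p = 0.0664). Txndc5 was abundant throughout, running from 4081 to 5067 in untreated tumors with a median of 4227 and from 4597 to 5770 in combination tumors with a median of 5008. Its difference was 0.25 (SE 0.06; limma adjusted p = 0.00188), and 4 of 8 combination tumors exceeded every untreated tumor. In the single-agent groups, Fkbp11 had medians of 86.9 after ADU-S100 and 97.9 after anti-LTβR, and Txndc5 had medians of 4297 and 4829. Txndc5 lies across from Bmp6 on the other strand, at a mean of 36.6 normalized counts. The strand setting used for counting is not given in the sources used here.

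Among the regulators, Pou2af1 changed most. Its untreated tumors ran from 30.6 to 177 with a median of 66.7, and its ADU-S100 tumors from 18.7 to 124 with a median of 52.2. Anti-LTβR tumors ran from 56.6 to 518 with a median of 191, and combination tumors from 90.7 to 673 with a median of 247. The combination group overlapped the untreated group, but 5 of its 8 tumors exceeded all untreated ones. Pou2af1 rose by 1.85 (SE 0.42; limma adjusted p = 0.00200) between means of 77.6 ± 49.0 and 288 ± 190.

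Prdm1, the repressor that fixes the plasma cell fate and is also known in T cells and macrophages, ran from 267 to 650 with a median of 351 in untreated tumors. Medians were 458 after ADU-S100, 499 after anti-LTβR and 548 in combination tumors, whose range was 404 to 694. Prdm1 rose by 0.56 in combination against untreated tumors (SE 0.15; limma adjusted p = 0.00705), and 2 of the 8 combination tumors exceeded all untreated ones. Xbp1, whose spliced product drives ER expansion, ran from 1988 to 2857 with a median of 2348 in untreated tumors and from 2207 to 3149 with a median of 2612 in combination tumors. Its difference of 0.20 (SE 0.09) was not called (limma adjusted p = 0.0721). That call turned on 1 tumor, since Xbp1 was called without untreated tumor 3 (adjusted p = 0.0219) or without combination tumor 4 (adjusted p = 0.0358), and DESeq2 also called it (adjusted p = 0.0478). The counts cover the gene as a whole, so its spliced form was not measured.

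Sdc1 moved the other way. Its untreated tumors ran from 16313 to 22281 with a median of 17736, and its ADU-S100 tumors from 16573 to 23167 with a median of 18692. Anti-LTβR tumors ran from 13338 to 20639 with a median of 17058, and combination tumors from 11718 to 16463 with a median of 13513. In 7 of 8 combination tumors Sdc1 lay below every untreated tumor. The mean was 18338 ± 1870 in untreated and 13767 ± 1640 in combination tumors, and Sdc1 fell by 0.42 (SE 0.08; limma adjusted p = 0.000623). Epithelial markers moved with it, and 4 of 8 were lower in combination tumors (23.6% of all genes were lower), namely Krt8, Krt18, Krt19 and Krt7, with none higher. The summed level of the 8 epithelial markers was 16205 to 29337 in untreated and 6931 to 14967 in combination tumors, with no marker at 0 in all tumors. Over the 32 tumors, the median Pearson r of these 8 markers with Sdc1 was 0.18, and −0.05 after group means were subtracted. The medians over all genes were 0.06 and 0.03. The list was split. Krt8, Krt18, Krt19 and Krt7 had r of 0.68, 0.61, 0.61 and 0.40, and 0.30, 0.10, 0.26 and −0.15 within groups. Epcam, Cdh1, Cldn4 and Muc1 had r of −0.50, −0.19, −0.14 and −0.04, and −0.40, −0.15, −0.20 and 0.05 within groups. For the 8 fibroblast markers the median r with Sdc1 was −0.76, and −0.45 within groups, and for the 8 endothelial markers −0.76 and −0.40. The part of epithelial, fibroblast or endothelial content in the Sdc1 difference was not tested.

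Compared per kb of exon, Sdc1 was the most abundant member in every group, at a mean of 4814 normalized counts per kb in untreated and 3614 in combination tumors. Txndc5 followed at 960 and 1143 per kb, and Xbp1 at 711 and 814 per kb. Mzb1 stood at 61.0 per kb in untreated and 230 in combination tumors, Pou2af1 at 30.5 and 113, and Derl3 at 20.7 and 65.9. Fkbp11 stood at 35.7 and 44.5 per kb, and Prdm1 at 69.3 and 99.9. In untreated tumors the 5 members other than Sdc1, Txndc5 and Xbp1 thus lay far below these 3.

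RefSeq promoter windows (GRCm38.p6) were on hand for 7 of the 8 members, in 10 windows because some genes have several starts. Mzb1 had no window, so its promoter was not searched. The 250 bases upstream of the start were searched on both strands for letters tied to XBP1 and to the ER stress response. The ER stress element, CCAAT and CCACG with any 9 bases between them, occurred in 37 of 32851 windows (0.113%), and Derl3 was the member that held it, 156 to 138 bases before its start. CCACGT, the core that XBP1 is known to bind, occurred in 6.91% of windows and in Derl3, Pou2af1 and 1 of the Txndc5 windows. Both motifs can share bases but did not in Derl3. The Derl3 and Pou2af1 windows are shown because these members rose more than 2-fold and held a match. Derl3 is on the + strand at chr10:75893148-75893397 and Pou2af1 on the + strand at chr9:51213440-51213689, each directly upstream of the first exon, and capitals mark the matches.
Derl3: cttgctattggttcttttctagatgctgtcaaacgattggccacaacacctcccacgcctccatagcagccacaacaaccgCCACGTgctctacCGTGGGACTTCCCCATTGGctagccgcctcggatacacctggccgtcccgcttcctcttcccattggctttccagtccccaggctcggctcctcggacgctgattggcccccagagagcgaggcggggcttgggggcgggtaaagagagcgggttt
Pou2af1: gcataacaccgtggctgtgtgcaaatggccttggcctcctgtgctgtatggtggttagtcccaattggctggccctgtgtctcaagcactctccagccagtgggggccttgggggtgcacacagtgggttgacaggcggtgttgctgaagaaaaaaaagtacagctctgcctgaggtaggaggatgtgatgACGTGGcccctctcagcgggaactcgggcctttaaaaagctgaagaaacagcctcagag
In the Derl3 window the first capitals are CCACGT, 169 to 164 bases before the start, and the later capitals are the ER stress element read from the other strand. The Pou2af1 capitals are CCACGT read from the other strand, 59 to 54 bases before the start. ATTTGCAT, the octamer that OBF-1 partners bind, was in 1.60% of windows, its shorter form TTTGCAT in 4.12%, and AAGTGAAA, a core known for BLIMP-1, in 1.36%. No member window held any of these 3. A match is a description of the letters, and whether a factor binds there was not measured.

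Given alone, anti-LTβR raised 2 of the 8 members against untreated tumors, against 7.21% of the 16691 genes tested. Mzb1 rose by 1.65 (SE 0.54; limma adjusted p = 0.0470) and Pou2af1 by 1.38 (SE 0.45; limma adjusted p = 0.0479), both more than 2-fold, as were 0.653% of all genes. Both calls lay close to the threshold. Mzb1 kept its call in 4 of the 16 fits that left out 1 tumor, those without untreated tumor 3 or 6 or anti-LTβR tumor 1 or 8, and its adjusted p otherwise ran from 0.0513 to 0.0898. Pou2af1 kept its call in 4 of 16, without untreated tumor 3 or 8 or anti-LTβR tumor 1 or 8, and otherwise ran from 0.0506 to 0.0944. With the tumor number as a block the adjusted p was 0.0695 for Mzb1 and 0.0816 for Pou2af1. Derl3 differed by 0.99 (limma adjusted p = 0.0813), Prdm1 by 0.42 (adjusted p = 0.0797) and Txndc5 by 0.15 (adjusted p = 0.0813), none called in this fit. Derl3 was called by DESeq2 and in a fit of all 4 groups. Prdm1 was also called in the fit of all 4 groups (adjusted p = 0.0296), and Txndc5 by edgeR with library totals (adjusted p = 0.0465). Txndc5 was called without untreated tumor 3 (adjusted p = 0.0257) or anti-LTβR tumor 1 (adjusted p = 0.0362), and Prdm1 without untreated tumor 7 (adjusted p = 0.0146). Fkbp11 differed by 0.05, Xbp1 by 0.03 and Sdc1 by −0.10, with adjusted p of 0.774, 0.819 and 0.404.

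ADU-S100 alone gave no call for any member or for any of the 16613 genes tested (0%) with limma. At an unadjusted p below 0.05, limma gave 2408 genes (14.5%), and after adjustment edgeR called 1 gene and DESeq2 39 genes. Among the members, Xbp1 had the lowest p, at a difference of −0.22 (limma adjusted p = 0.276). It lay below every untreated tumor in 5 of 8 ADU-S100 tumors. Mzb1 differed by −0.54 with a 95% confidence interval of −1.56 to 0.48 (limma adjusted p = 0.585), and Prdm1 by 0.29 (adjusted p = 0.338). Pou2af1 differed by −0.32, Derl3 by −0.14, Fkbp11 by −0.13, Txndc5 by 0.03 and Sdc1 by 0.07, with adjusted p from 0.624 to 0.841. The intervals of Mzb1 and Pou2af1 reached past a 2-fold decrease, so such a change is not excluded by these tumors.

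**Figure D2:**
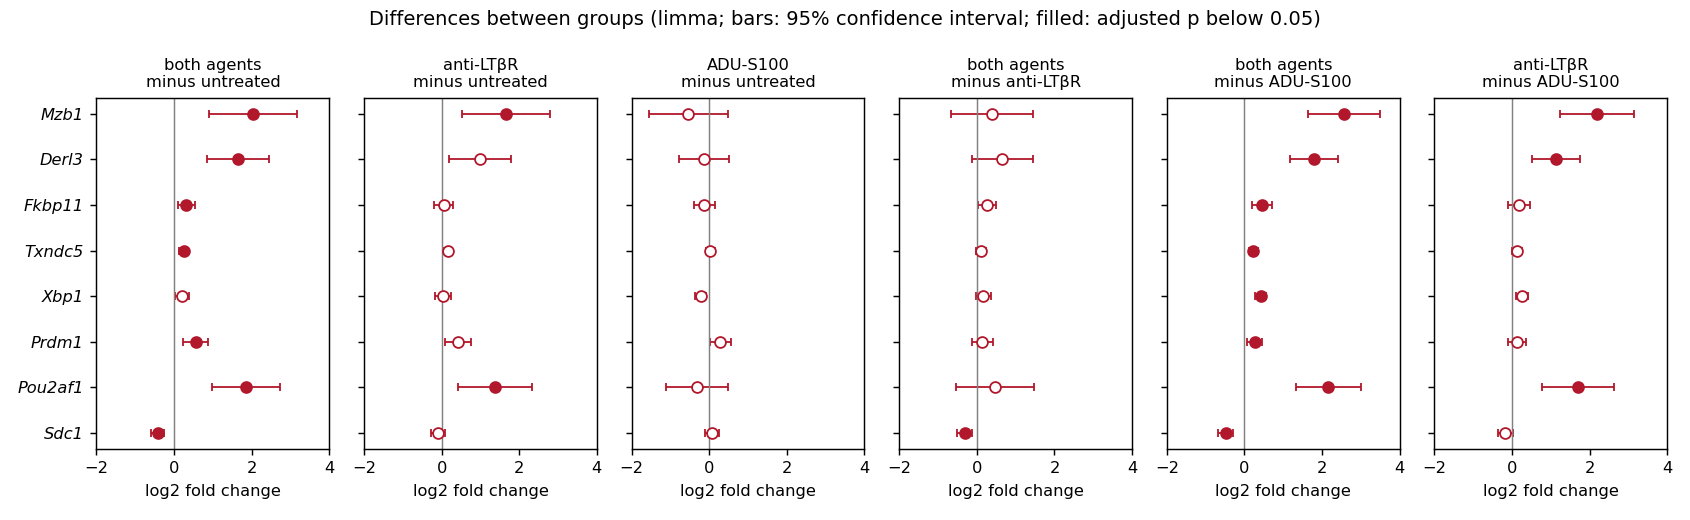
Log2 differences of the 8 members in the pairwise comparisons, with 95% confidence intervals from limma (n = 8 tumors per group). Mzb1, Derl3 and Pou2af1 lie above 0 in combination against untreated and against ADU-S100 tumors, and Sdc1 lies below 0 in both.

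Against ADU-S100 tumors, all 8 members were called in combination tumors, 7 higher and 1 lower, where 20.2% of the 16811 genes tested were higher and 26% lower. Mzb1 was higher by 2.57 (limma adjusted p = 0.000201), Pou2af1 by 2.16 (adjusted p = 0.000362) and Derl3 by 1.79 (adjusted p = 0.000138), all at least 2-fold, as were 5.46% of all genes. Xbp1 was higher by 0.42 (adjusted p = 0.000102) and Fkbp11 by 0.45 (adjusted p = 0.00748). For Mzb1, Derl3, Xbp1 and Sdc1 the 2 groups did not overlap, which held for 12% of all genes tested. Sdc1 fell by 0.48 (adjusted p = 0.000463). Prdm1 was higher by 0.27 (adjusted p = 0.0262) and lost its call without ADU-S100 tumor 3, combination tumor 1 or combination tumor 8 (adjusted p 0.0514 to 0.0532) and in a fit of all 4 groups (adjusted p = 0.105). This comparison and that with untreated tumors share the combination tumors.

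Against anti-LTβR tumors, 1 of the 8 members was called in combination tumors, where 11.3% of the 16932 genes tested were higher and 15.3% lower. Sdc1 fell by 0.31 (SE 0.09; limma adjusted p = 0.0177). With libraries above 14000000 reads alone, its difference was −0.17 and was not called (adjusted p = 0.226). Mzb1 differed by 0.38 with a 95% confidence interval of −0.68 to 1.44 (adjusted p = 0.612), an interval that holds both no difference and a change of more than 2-fold. Pou2af1 differed by 0.46 (−0.53 to 1.46), Derl3 by 0.66 (−0.13 to 1.45), Prdm1 by 0.14, Xbp1 by 0.16 and Txndc5 by 0.10, none called. Fkbp11, at 0.26 (adjusted p = 0.0856), was called without anti-LTβR tumor 3 (adjusted p = 0.0414) or combination tumor 4 (adjusted p = 0.0480).

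Between the single agents, 3 of 8 members were higher after anti-LTβR than after ADU-S100, where 3.38% of the 16649 genes tested were higher. Mzb1 was higher by 2.19 (limma adjusted p = 0.0123), Pou2af1 by 1.70 (adjusted p = 0.0315) and Derl3 by 1.13 (adjusted p = 0.0327), all at least 2-fold, as were 0.559% of all genes. Derl3 kept its call in 8 of 16 fits without 1 tumor, and lost it without ADU-S100 tumors 2 to 5 or anti-LTβR tumors 4 to 7 (adjusted p 0.0524 to 0.0681), and its adjusted p was 0.0738 with the tumor number as a block. Pou2af1 kept its call in 9 of 16, and lost it without ADU-S100 tumors 1 to 3 or anti-LTβR tumors 4 to 7 (adjusted p 0.0513 to 0.0659). Xbp1 differed by 0.26 (adjusted p = 0.0533) and was called without anti-LTβR tumor 1, 2 or 8 (adjusted p 0.0195 to 0.0454), and by edgeR (adjusted p = 0.0424) and DESeq2 (adjusted p = 0.0105).

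The order of group means was combination, anti-LTβR, untreated and ADU-S100 for Mzb1, Derl3, Fkbp11, Xbp1 and Pou2af1. For Txndc5 and Prdm1 untreated tumors were lowest, and for Sdc1 the order from the top was ADU-S100, untreated, anti-LTβR and combination. Between neighbours in these orders, the differences called were those of Mzb1 and Pou2af1 between anti-LTβR and untreated tumors and that of Sdc1 between anti-LTβR and combination tumors.

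Whether the effect of 1 agent differed with the other was tested as an interaction over all 32 tumors. Of 17649 genes tested, 7.33% had a positive and 11% a negative interaction, and 2 of the 8 members were called. Xbp1 had an interaction of 0.38 (SE 0.12; limma adjusted p = 0.0216), with −0.22 for ADU-S100 against untreated and 0.16 for combination against anti-LTβR, neither called in its pairwise fit. Sdc1 had an interaction of −0.38 (SE 0.13; limma adjusted p = 0.0331). The Sdc1 call was lost in 8 of 32 fits without 1 tumor (adjusted p 0.0504 to 0.0605), those without untreated tumor 6, ADU-S100 tumor 2, 4 or 5, anti-LTβR tumor 5 or 8, or combination tumor 5 or 6. Fkbp11, at 0.39 (adjusted p = 0.101), was called without ADU-S100 tumor 4 (adjusted p = 0.0434). With libraries above 14000000 reads alone, neither Xbp1 (adjusted p = 0.127) nor Sdc1 (adjusted p = 0.157) was called. No interaction was called for Mzb1, Derl3 or Pou2af1.

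Across the 32 tumors, Mzb1, Pou2af1 and Derl3 varied together. On log2 values, Pearson r with Mzb1 was 0.97 for Pou2af1, 0.91 for Derl3 and 0.80 for Xbp1, and 0.94, 0.83 and 0.72 after group means were subtracted. Txndc5 and Fkbp11 followed at 0.75 and 0.63, falling to 0.55 and 0.46 within groups. Prdm1 stood apart at 0.29 and −0.11, and Sdc1 at −0.41 and 0.13. These are descriptions over tumors that share treatment, library preparation and normalization. The members thus ranged from near-parallel variation with Mzb1 to little or none within groups.

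**Figure D3:**
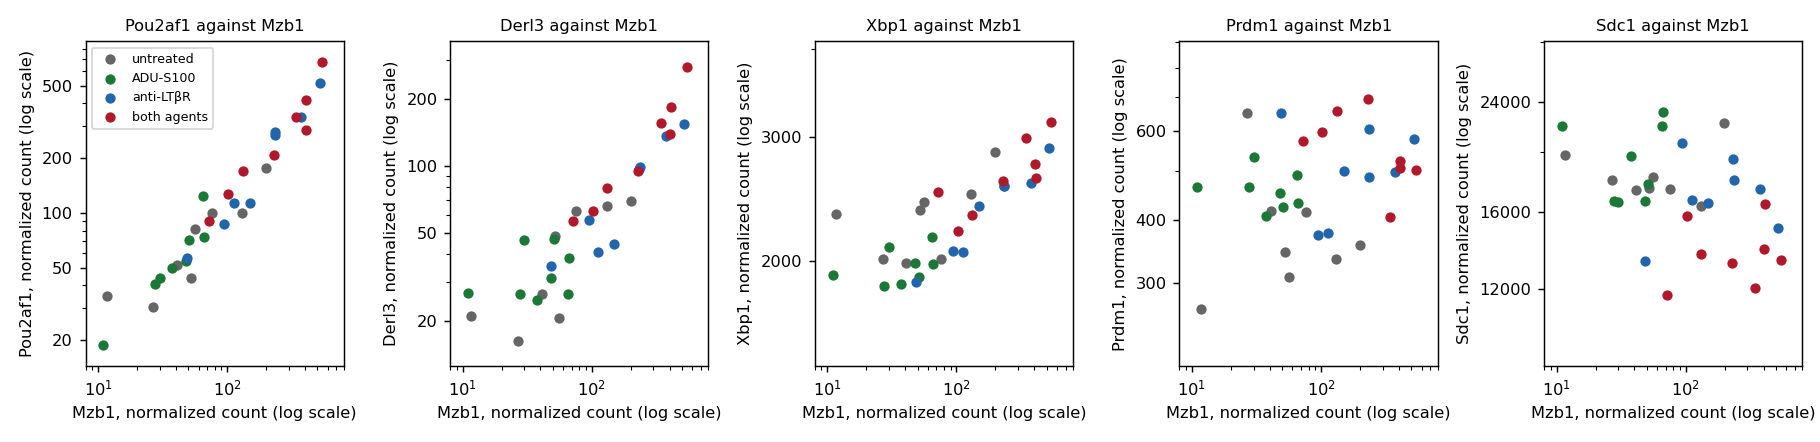
Normalized counts of Pou2af1, Derl3, Xbp1, Prdm1 and Sdc1 against Mzb1 in the 32 tumors, on log axes, with points coloured by group. Pou2af1 and Derl3 track Mzb1 in a narrow band (r of 0.97 and 0.91), and Prdm1 and Sdc1 scatter.

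The genes most like each member were found among 17028 genes with a mean of at least 10. For Mzb1 they were Igkc (r = 0.97), the kappa light chain constant gene, Pou2af1, Jchain (0.95), the joining chain of secreted IgA and IgM, 1 gene with no symbol, and Bhlha15 (0.93), a transcription factor of secretory cells. Derl3 and Pou2af1 also had Igkc and Jchain among their closest 3. Within groups, Igkc and Pou2af1 stayed the closest to Mzb1 at 0.95 and 0.94. Xbp1 was closest to AI662270 (0.85), Slpi (0.84), a secreted protease inhibitor, and Ly6c2 (0.83), and within groups to Ly6c2 (0.79), AI662270 and Sdf2l1 (0.78), an ER cochaperone. Txndc5 was closest to Ly6c2, Pde1a and Slpi (each 0.81), and within groups to Creld2 (0.71), Dnajb11 (0.71), both ER folding genes, and Fxyd6 (0.70). Fkbp11 was closest to Erp29 (0.74), another ER protein, Selenom and Lsp1, and within groups to Ddost (0.73), a subunit of the oligosaccharyltransferase, Hgfac (0.70) and Lgals9 (0.67). Prdm1 was closest to Gm49759 (0.84), Arnt (0.81) and Slc6a8 (0.81), and within groups to Gm49759 (0.78), Rlf (0.77) and Nfkbiz (0.75). Sdc1 was closest to Gm12349 (0.90), Ndfip1 (0.90) and Foxf2 (0.89), and within groups to Gcnt2 (0.82), Ptprk (0.81) and Gm12349 (0.78).

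Most other plasma cell genes moved in the same direction as Mzb1 in combination against untreated tumors. Of 11 tested, 9 rose and 1 fell, with a median difference of 1.21 where that of all genes was −0.02. Jchain rose by 2.26 (limma adjusted p = 0.000970), Irf4, a transcription factor needed for plasma cells, by 1.70 (adjusted p = 0.000129) and Slamf7, a surface receptor, by 1.36 (adjusted p = 7.61e-05). The 1 lower call was Fcrl5, at a mean of 18.7 ± 7.91 without treatment and 8.47 ± 8.54 with both agents (SD, n = 8). It passed the filter through the untreated group, since it failed in the comparisons that left that group out, so nothing is read from its call. Ell2, an elongation factor that favors secreted immunoglobulin mRNA, was not called. Tnfrsf17, which encodes BCMA, was below the filter, at 4.98 ± 3.28 without treatment and 18.5 ± 10.4 with both agents (SD, n = 8; two-sided exact permutation p = 0.00218). Of 11 immunoglobulin constant genes tested, 9 rose and none fell, with a median of 1.97, led by Igha at 2.53. Ighm differed by 1.13 and was not called (adjusted p = 0.0564). Of 12 B cell identity genes 10 passed the filter and 8 rose, with a median of 1.10, among them Cd79a by 1.60. The other 2, Cr2 and Fcer2a, had two-sided exact permutation p of 0.146 and 0.0292, and without the filter neither was called (limma adjusted p = 0.251 and 0.0733). Of 5 germinal center genes tested, 2 rose, with a median of 0.05. Among the 3 below the filter, Mef2b was at 2.72 ± 1.76 without treatment and 10.5 ± 6.55 with both agents (SD, n = 8; two-sided exact permutation p = 0.00373).

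The general ER lists were mixed in combination against untreated tumors, where 19.6% of all genes were higher and 23.6% lower. Of 16 ER chaperones and folding enzymes none rose and 6 fell, with a median of −0.13, among them Hspa5 (BiP), which fell by 0.37 (limma adjusted p = 0.000736), and Dnajb9. Of 17 genes of ER translocation and processing none rose and 5 fell, and of 12 genes of ER-associated degradation, the pathway of Derl3, Edem2 rose and Ube2j1 fell. Of 10 stress sensors and unfolded protein response genes, Eif2ak3 (PERK) rose by 0.31 and 6 fell. These 6 included Ern1, which encodes the IRE1 enzyme that splices Xbp1 mRNA, by 0.57 (adjusted p = 0.000309), and Trib3, a target of the ATF4 arm, by 1.19 (adjusted p = 6.18e-05). The median r of the 16 chaperones was 0.18 with Xbp1, 0.23 with Fkbp11 and 0.06 with Txndc5 over the 32 tumors, and 0.46, 0.54 and 0.45 after group means were subtracted. For Hspa5, r with Xbp1 turned from −0.29 to 0.15, and for Dnajb9 from −0.31 to 0.19, while Sdf2l1 stayed at 0.78 and Creld2 at 0.75 and 0.78. The stress list went from −0.44 to −0.16 with Xbp1, and the ER relatives of Fkbp11 and Txndc5 from 0.49 to 0.24. Of 12 relatives of Fkbp11 and Txndc5 in the ER, 6 rose and 1 fell, with a median of 0.20. The largest rise among those named was 0.90 in Fkbp10, a collagen chaperone, beside 0.43 in Fkbp7. Of the 3 other syndecans, Sdc4 fell by 0.40 (adjusted p = 0.000470), and Sdc2 and Sdc3 were not called.

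**Figure D4:**
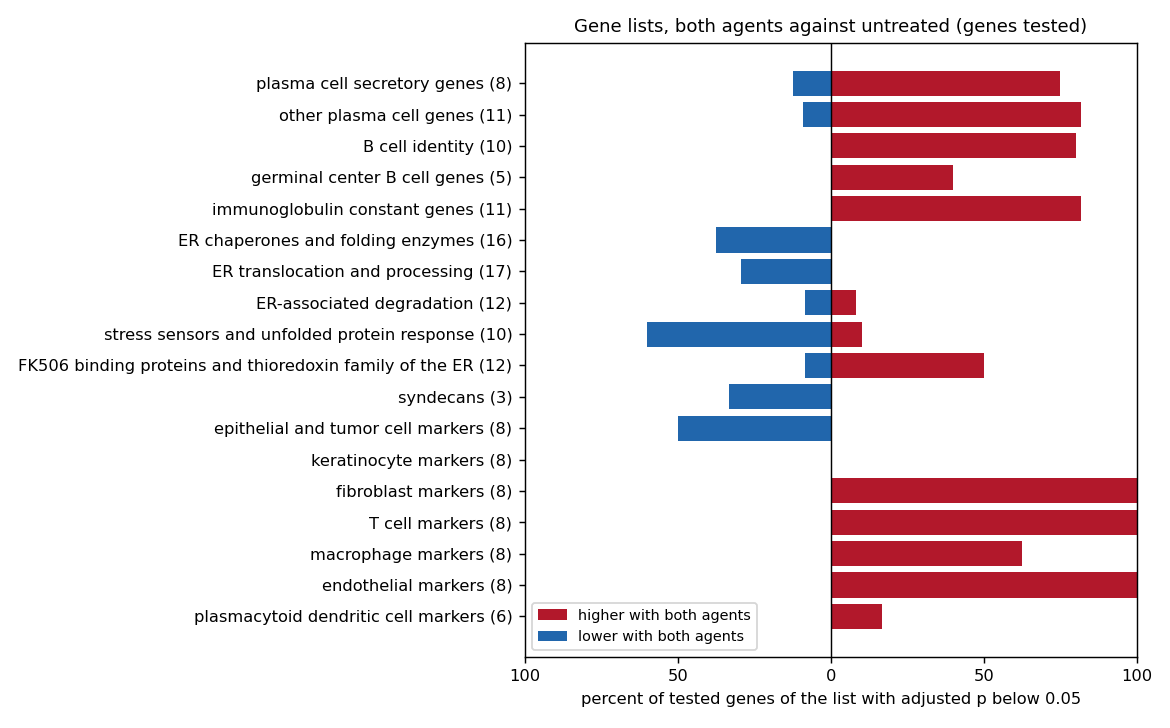
Percent of the tested genes of each list called higher or lower in combination against untreated tumors (limma adjusted p below 0.05), with the number of genes tested (n = 8 tumors per group). Of 11 other plasma cell genes and of 11 immunoglobulin constant genes, 9 each were higher. Of 16 ER chaperones none was higher and 6 were lower. Of all genes tested, 19.6% were higher and 23.6% lower.

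Other cell types also moved between these groups. All 8 fibroblast, all 8 T cell and all 8 endothelial markers rose in combination against untreated tumors, as did 5 of 8 macrophage markers, and none of these fell. The summed fibroblast markers ran from 91771 to 143829 in untreated and from 161560 to 591496 in combination tumors, and T cell markers from 625 to 1573 and from 1319 to 2418. B cell identity genes summed to 562 to 1004 in untreated and 1099 to 2067 in combination tumors, so these groups did not overlap. Immunoglobulin constant genes summed to 8549 to 63198.5 in untreated and 41114 to 234529 in combination tumors. Of 6 plasmacytoid dendritic cell markers tested, a cell type that also expresses Mzb1, Tcf4 rose and none fell, and none of 8 keratinocyte markers was called. No marker was at 0 in all tumors of a group. The part of each cell type in the member differences was not tested. Plasma and B cell genes were present in untreated tumors too, where Jchain ran from 567 to 4497 normalized counts.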

How the data were processed

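RNA was sequenced from 32 bulk tumors, 8 per group. The authors deposited normalized counts per gene, a signal scaled across libraries in Partek. The submitters' processing notes name the mouse build mm39 and both HISAT2 with StringTie and STAR, so the aligner is not settled. A second deposited table of normalized counts holds the same 32 tumors and 20 libraries of another experiment, normalized together. Its values below 1000, divided by the step of their library, came out whole for 100% (tolerance 0.02), which gave the reads per tumor used for depth and for the count tests. In some libraries that step is close to 1. The 20 other libraries entered no test. An enrichment table by the authors was not used.

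Groups were taken from the labels. The values were tested as log2(normalized count + 1) with limma 3.58.1 in R 4.3.3, with a trend, over genes passing filterByExpr (count minimum 10), on the 16 tumors compared, with Benjamini-Hochberg adjustment over all genes tested. edgeR 4.0.16 and DESeq2 1.42.0 on the reads recovered from the second table were alternatives. The code was tested on simulated data. All 8 members were tested and counted in every comparison, but not every member is named in each. Genes of 17 other lists are counted list by list, and the 3 genes (5 for Mzb1) closest in Pearson correlation are given. The members and lists were chosen with earlier results of these data known. Depth was similar across groups, and counting error and tumor spread both enter the SE. Promoter sequences are from RefSeq. Some items are not reported here. Promoter coordinates are on GRCm38.p6, and no other coordinates are printed, although gene overlaps and exon lengths also rest on gene positions.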

Additional observations from a re-analysis of the deposited data

Results flagged for a closer look

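In untreated tumors, the highest tumor stood far from the other 7 for Txndc5, at 5067 normalized counts, and for Prdm1, at 650. Each group of each member was examined, 32 in all, 2 stood out, and chance marks about 5% of such groups.

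An interaction of the agents was called for Xbp1 (0.38 on the log2 scale, limma adjusted p = 0.0216) and for Sdc1 (−0.38, limma adjusted p = 0.0331). Over all 17649 genes tested, 7.33% had a positive and 11% a negative interaction, so 1 member each way is near that share. Neither was called with libraries above 14000000 reads alone (limma adjusted p = 0.127 and 0.157). The Sdc1 call was kept in 24 of 32 fits without 1 tumor.

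A second deposited table held the 32 tumors beside 20 libraries of another experiment, and 5 of these are combination tumors in both of their labels. For the other 15, the treatment label says combination while the description names control, ADU-S100 or anti-LTβR, so they were put in no group, and the conflict leaves the treatment label of the 5 less certain too. All 8 members were detected in those 5. Their median normalized counts were 634 for Mzb1, 135 for Derl3, 229 for Fkbp11, 6147 for Txndc5, 4890 for Xbp1, 494 for Prdm1, 330 for Pou2af1 and 22046 for Sdc1. Mzb1 ran from 290 to 2489 in these 5 libraries, and on the scale of that table from 75.0 to 556 in the 8 combination tumors and from 12.1 to 202 in the 8 untreated tumors described above. Sdc1 ran from 8049 to 26857 in the 5 libraries, whereas its median in that table was 13899 in the 8 combination and 18278 in the 8 untreated tumors, so its median in the 5 libraries lay above both. The 15 libraries with conflicting labels ran from 3.50 to 4222 for Mzb1, with a median of 58.8. The difference between the experiments was not tested.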

How the results depend on the processing

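Of the counts of members called, 7 in combination against untreated became 3 with a 2-fold requirement, 8 in combination against ADU-S100 became 3, 1 in combination against anti-LTβR became 0, and 2 interactions became 0. The 2 calls of anti-LTβR against untreated became 1 with edgeR under TMM and 1 under RLE, 0 without a filter, 4 in a fit of all 4 groups and 0 with libraries above 14000000 reads. Leaving out those 7 shallower libraries also gave 0 calls in combination against anti-LTβR, 1 of 3 in anti-LTβR against ADU-S100 and 0 interactions. With 1 tumor left out, the members called ran from 6 to 8 in combination against untreated, 0 to 3 in anti-LTβR against untreated, 0 to 0 in ADU-S100 against untreated, 1 to 2 in combination against anti-LTβR, 7 to 8 in combination against ADU-S100, 1 to 4 in anti-LTβR against ADU-S100 and 1 to 2 for the interaction. The cause of these changes was not tested. The replicate numbers were not treated as pairs in the main tests. The mean correlation of same-numbered deviations was −0.0867 to 0.187, and that of other numbers −0.0295 to 0.0121. With 8 pairs per comparison, these values cannot settle whether the numbers pair tumors. With the number as a replicate block, 6, 0, 0, 1, 8, 2 and 2 members were called, in the same order. Of the single members, Xbp1 in anti-LTβR against untreated ran from −0.0082 (without anti-LTβR tumor 6, limma adjusted p = 0.960) to 0.0821, and Txndc5 in ADU-S100 against untreated ran from −4.0e-05 (without ADU-S100 tumor 4) to 0.0594, neither called before or after. Whether depth limits the listed genes below the filter was not tested.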

Other observations

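The tumor highest in Mzb1 was also highest in Derl3, Pou2af1 and Xbp1 among the 8 tumors of the untreated, anti-LTβR and combination groups, whereas for Prdm1 it ranked 4, 3 and 7. Among ADU-S100 tumors it ranked 3 for Derl3, 2 for Pou2af1, 4 for Xbp1 and 6 for Prdm1. The coefficient of variation of Mzb1 was 83.5% without treatment and 45.6% after ADU-S100, and with anti-LTβR it was 71.8% alone and 61.2% beside ADU-S100.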
